A study of Mus musculus with 4 samples.

Results

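The genes described here are 10 named members of a fatty acid sensing circuit, comprising 3 peroxisome proliferator-activated receptors (PPARs), a coactivator, and 6 genes of lipid handling and lipid droplets. They were taken by symbol from a table of 36144 gene names measured by RNA-seq of whole mouse colonoids, which are cultures of colonic epithelium grown in 3 dimensions. Colonoids at passage 3 were left untreated or received 2 mM sodium butyrate, and RNA was taken after 48 h or 72 h, so that each of the 4 conditions is a single library. All 4 libraries trace to colon of a male mouse aged 24 weeks, labelled wild type in the sample labels and Hes1-GFP in the study's legend, and all cultures, untreated ones included, grew with EGF, Noggin, R-spondin, CHIR99021 and Y-27632. The design asks how butyrate changed expression at each time. With 1 library per condition no difference can be set against replicate error, no p-values were computed, and every interval below is a 95% interval that covers counting error only.

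PPARs are nuclear receptors that are activated by fatty acids and their derivatives. They bind DNA together with retinoid X receptors at direct repeats of the letters AGGTCA, and their targets include genes of fatty acid uptake, oxidation and storage. Lipid droplets store neutral lipid behind a coat of perilipins, and the stored triglyceride is released by lipases at the droplet surface. PPARγ is the receptor best known in colonic epithelium, where butyrate produced by bacteria is a major fuel.

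Of the 10 members, 9 passed the filter on low values (above 10 counts in 2 libraries or more), and each of these 9 was above 10 counts in all 4 libraries. *Cd36* had 0 counts everywhere. The largest difference was in *Angptl4*, whose normalised count, after adding a pseudocount of 1 as in all folds below, was 4.37 times as high with butyrate at 48 h and 2.17 times as high at 72 h. *Plin2* was 1.63 and 1.30 times as high. *Ppara* was lower with butyrate at 72 h, at 0.497 times the untreated level. The other members differed by less than 1.5-fold at both times. Among all 13979 genes that passed the filter, the share at least 2-fold higher with butyrate was 6.94% at 48 h and the share at least 2-fold lower was 3.08%. At 72 h these shares were 4.53% and 3.78%. Among the 9 members, *Angptl4* was beyond 2-fold at 48 h, and *Angptl4* (higher) and *Ppara* (lower) were at 72 h. At a threshold of 1.5-fold, *Angptl4* and *Plin2* were higher at 48 h, beside 13.1% of all tested genes, and 0 members were lower, beside 8.9%. At 72 h *Angptl4* was again the higher one (9.5%) and *Ppara* the lower one (8.53%). Counting intervals lay above 0 at 48 h for *Pparg*, *Angptl4* and *Plin2* (29.3% of all tested genes) and below 0 for *Ppard* and *Plin3* (31.3%). At 72 h they lay above 0 for *Angptl4*, *Plin2* and *Pnpla2* (25.9%) and below 0 for the 3 receptors and *Ppargc1a* (26.4%). At both times they lay above 0 for *Angptl4* and *Plin2* (12.9%) and below 0 for *Ppard* (13.6%). The median log2 fold change of the 9 members was 0.095 at 48 h and −0.068 at 72 h, beside −0.011 and 0.0022 over all tested genes.

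Promoter sequence was available in the RefSeq table (GRCm38.p6) for 9 of the 10 members, as 12 windows, since *Hilpda* has 2 start sites there and *Pparg* has 3. No entry was used for *Angptl4*. The 250 bases before the start site are printed 5′ to 3′ for the pair of droplet genes that are both induced by hypoxia and by PPARs, *Plin2* and *Hilpda* (upstream start site). Their log2 fold changes with butyrate had intervals that did not overlap at 48 h and that overlapped at 72 h. They lie at chr4:86670060-86670309 (minus strand) and chr6:29272238-29272487 (plus strand). Capitals mark matches to the PPAR half-site AGGTCA or to the hypoxia-type letters ACGTG and GCGTG, each searched on both strands.
Plin2: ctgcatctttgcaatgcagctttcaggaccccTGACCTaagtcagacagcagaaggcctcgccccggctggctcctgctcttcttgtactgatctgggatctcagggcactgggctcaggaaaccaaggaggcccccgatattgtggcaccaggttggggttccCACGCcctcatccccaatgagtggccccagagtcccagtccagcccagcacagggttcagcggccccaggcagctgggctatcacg
Hilpda: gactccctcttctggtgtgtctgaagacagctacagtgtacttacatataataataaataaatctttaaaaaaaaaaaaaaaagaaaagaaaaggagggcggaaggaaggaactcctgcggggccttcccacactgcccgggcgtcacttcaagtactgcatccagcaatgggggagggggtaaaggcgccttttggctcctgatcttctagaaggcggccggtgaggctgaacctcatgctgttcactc

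The half-site was found once before *Plin2*, starting 218 bases before the start site, and GCGTG once, starting 86 bases before it, both as their reverse complements. None of these letters was found in the printed *Hilpda* window. The window of the downstream *Hilpda* start site, which overlaps a first exon, held GCGTG 111 and 8 bases and ACGTG 43 bases before that site. The *Ppara* window, which also overlaps first exons, held GCGTG 110 bases before its start. Hypoxia-type letters were also found before *Ppard* (ACGTG at 213 and GCGTG at 9 bases), *Pparg* (GCGTG at 242 and 8 bases before 1 start site) and *Ppargc1a* (ACGTG at 51 bases). The half-site was also present in windows of *Pparg*, 28 bases before 1 start site and 9 bases before another, and of *Cd36*, 228 bases before the start. The *Ppard* window and these *Pparg* windows also overlap the annotated genes, which begin upstream of the start sites used. The *Cd36* window lies within its annotated gene. Over the first 250 bases of 32817 promoter windows, AGGTCA was present in 14.0%, ACGTG in 16.6% and GCGTG in 28.1%. The full direct repeat, which is 2 copies of AGGTCA with any 1 base (N) between them, was present in 0.0335% of windows and in none of the members' windows. These matches describe letters in a short window and do not show that a factor bound there, and a missing match says only that the letters are not in it.

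**Figure D1:**
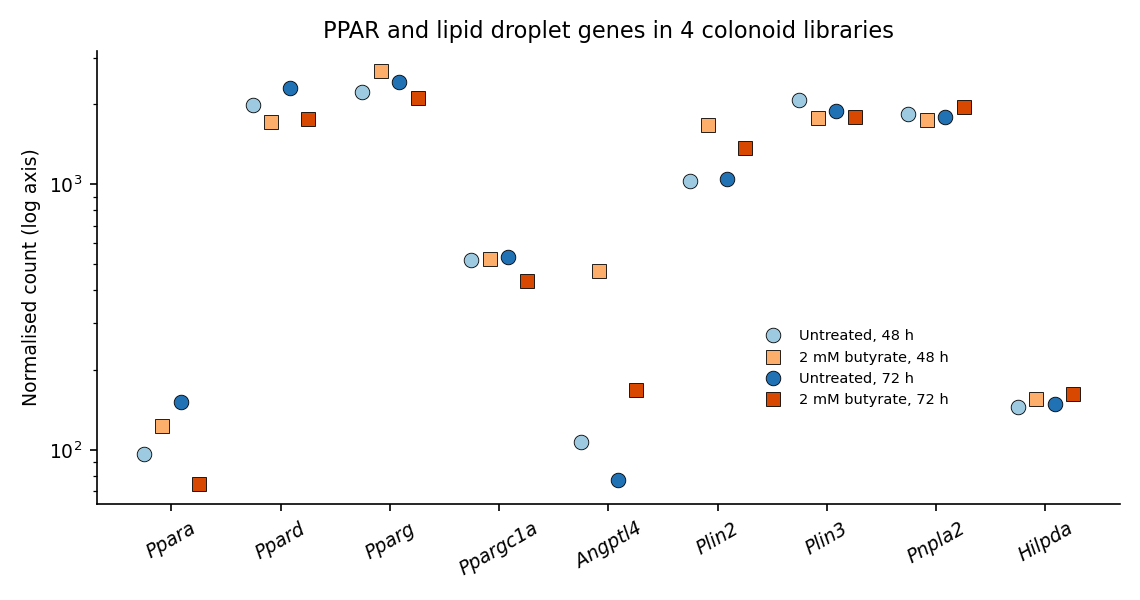
Normalised counts (log axis) of the 9 tested members in the 4 libraries, with circles for untreated and squares for butyrate-treated colonoids and darker colours for 72 h. *Angptl4* and *Plin2* lie higher in both butyrate libraries, *Ppara* is lowest in the butyrate library at 72 h, and *Hilpda* and *Pnpla2* stay close together.

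The libraries held between 20790225 and 24207840 counts, and size factors were between 0.926 and 1.10. The mitochondrial share of counts was 15.1% without and 14.1% with butyrate at 48 h, against 18.4% without and 16.3% with it at 72 h. All 9 epithelial markers on the list, such as *Epcam* with at least 25463 and *Cdx2* with at least 3758 counts in every library, were abundant. With butyrate, 4 of the 9 had intervals above 0 and 5 below at 48 h (29.3% and 31.3% of all tested genes), and 1 above and 8 below at 72 h (25.9% and 26.4%), with medians of −0.049 and −0.17 on the log2 scale. The defining adipocyte genes *Adipoq* and *Lep* had 0 counts in every library. The summed normalised counts of 7 adipocyte markers lay between 57.3 and 84.4, of 5 endothelial markers between 32.7 and 56.3, and of 5 fibroblast markers between 15.1 and 21.8, and 1 gene of each list passed the filter. Of 8 immune markers, 2 passed. *Cd68*, a lysosomal glycoprotein gene named after its values were seen, gave 128 counts without and 1309 counts with butyrate at 48 h, against 172 without and 420 with it at 72 h. The other 7 summed to 59.3 and 41.7 normalised counts at 48 h, and 64.2 and 71.3 at 72 h, and *Adgre1* was at 0 throughout. The part of such cells in the results was not tested. In bulk RNA, fewer cells of a type and less RNA per cell cannot be told apart.

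Levels were compared between members as CPM per kb of annotated exon. *Pparg* was highest, with 34.2, 41.1, 35.3 and 32.0 in untreated and butyrate-treated colonoids at 48 h and untreated and butyrate-treated colonoids at 72 h. *Pnpla2* followed at 25.5 to 28.7 and *Plin3* at 21.2 to 24.9. In untreated colonoids at 48 h, *Plin2* (13.2, 12.4 to 14.1) and *Ppard* (12.0, 11.5 to 12.6) had overlapping intervals, whereas with butyrate at 48 h *Plin2* reached 21.7 and *Ppard* was at 10.5. *Hilpda* lay between 5.81 and 6.54 and *Ppargc1a* between 2.93 and 3.62. *Angptl4* (1.37, 1.12 to 1.66) and *Ppara* (1.14, 0.918 to 1.39) could not be told apart in untreated colonoids at 48 h, and with butyrate at 48 h *Angptl4* was near *Hilpda*, at 6.08 and 6.40. Of the 10 members, 5 lay above the median level of tested genes by a clear margin and *Hilpda* just above it, at 5.97 against 5.36 in untreated colonoids at 48 h. The levels of *Ppard* and *Plin2* depend on the length used, since the longest transcript of *Ppard* has 3726 bases and its exons together cover 7514, and that of *Plin2* has 1888 and its exons 3512. Per kb of longest transcript, *Plin2* with butyrate at 48 h was at 40.4, above *Pnpla2* at 30.2 and *Plin3* at 22.3.

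The 3 receptors showed different patterns. *Ppara* (chromosome 15, 85734983 to 85802819, GRCm38) encodes the receptor best known from liver and from tissues that oxidise fatty acids. It gave 94 counts without and 135 counts with butyrate at 48 h, against 153 without and 69 with it at 72 h. The untreated library at 72 h was the highest and the butyrate library at 72 h the lowest of the 4. Its log2 fold change, taken on normalised counts after adding a pseudocount of 1, was 0.35 (−0.04 to 0.75) at 48 h but −1.01 (−1.45 to −0.60) at 72 h. The untreated libraries themselves differed by 0.65 from 48 h to 72 h. With total count scaling, with totals without mitochondrial genes or with a pseudocount of 5, *Ppara* was less than 2-fold lower at 72 h.

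*Ppard* (chromosome 17, 28232700 to 28301474), a receptor expressed in many tissues, gave 1952 counts without and 1901 counts with butyrate at 48 h, against 2343 without and 1630 with it at 72 h. Both butyrate libraries were below both untreated ones after scaling, at 1725 and 1760 against 1996 and 2313 normalised counts. The log2 fold changes were −0.21 (−0.30 to −0.12) and −0.39 (−0.49 to −0.30). *Pparg* (chromosome 6, 115360951 to 115490399) gave 2181 (untreated) and 2937 (butyrate) counts at 48 h, against 2458 and 1966 at 72 h. Its butyrate libraries were the highest and the lowest of the 4, with log2 fold changes of 0.26 (0.18 to 0.34) at 48 h and −0.19 (−0.28 to −0.11) at 72 h. The counts are per gene and do not separate the protein isoforms that arise from its different start sites. An antisense gene overlaps *Pparg* in the annotation, and 4 genes overlap *Ppargc1a*, of which 1 is antisense, and none of these has a row of its own in the count table. *Ppard* was the only receptor whose interval lay on the same side of 0 at both times.

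*Ppargc1a* (chromosome 5, 51454250 to 51567726) encodes PGC-1α, a coactivator of PPARs and of mitochondrial biogenesis. It gave 508 counts without and 577 counts with butyrate at 48 h, against 538 without and 402 with it at 72 h. The butyrate library at 72 h was the lowest, at 434 normalised counts, and the others lay between 519 and 531. Butyrate over untreated was 0.01 (−0.16 to 0.19) on the log2 scale at 48 h and −0.29 (−0.48 to −0.10) later.

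Of 13 listed partners and coregulators of the receptors 12 were tested, and 0 were 2-fold higher or lower at either time, a count to be read beside the 6.94% and 3.08% of all tested genes at 48 h and the 4.53% and 3.78% at 72 h. Intervals lay above 0 for 3 and below 0 for 6 at 48 h, beside 29.3% and 31.3% of all tested genes, and above 0 for 4 and below 0 for 4 at 72 h, beside 25.9% and 26.4%. The number below 0 at 72 h depended on scaling. With total count scaling the intervals of *Nrip1* and of *Ncor1*, named after its values were seen, included 0. With TMM factors that of *Ppargc1b* lay below 0. The largest change was in *Ncoa2*, a coactivator gene named after its values were seen, at −0.56 (−0.66 to −0.46) at 48 h and 0.11 (0.02 to 0.19) at 72 h. Their median was −0.13 on the log2 scale at 48 h and −0.027 at 72 h. *Rxra*, which encodes a retinoid X receptor partner, gave 1049 counts without and 1033 counts with butyrate at 48 h, against 1400 without and 1003 with it at 72 h, with log2 fold changes of −0.19 (−0.32 to −0.07) and −0.35 (−0.47 to −0.23). *Rxrb*, a second partner gene named after its values were seen, was at −0.10 (−0.23 to 0.03) and 0.08 (−0.07 to 0.23). The coactivator *Ncoa1* was lower by a log2 change of −0.41 and −0.42, and the corepressor *Nrip1* by −0.15 and −0.11, with all 4 intervals below 0, although that of *Nrip1* at 72 h included 0 with total count scaling. *Pprc1*, a relative of PGC-1α, was slightly higher at both times, by 0.13 and 0.16. *Ppargc1b*, which encodes PGC-1β, was higher at 48 h, by 0.42 (0.26 to 0.59), and at −0.16 (−0.32 to 0.00) at 72 h.

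*Angptl4* (chromosome 17, 33773750 to 33781830), a PPAR and hypoxia target, encodes a secreted inhibitor of lipoprotein lipase. It gave 105 counts without and 521 counts with butyrate at 48 h, against 78 without and 156 with it at 72 h. Both butyrate libraries were above both untreated ones, and the butyrate library at 48 h stood far above the rest. On the log2 scale the difference was 2.13 (1.83 to 2.45) at 48 h, exceeded by 227 of the 13979 tested genes, and 1.12 (0.73 to 1.54) at 72 h, exceeded by 525. Of all tested genes 2.55% were at least 2-fold higher at both times, and *Angptl4* was the only member among them. At least 2-fold lower at both times were 0.887% and 0 members. At 1.5-fold these shares were 5.51% higher, with *Angptl4* the only member, and 2.73% lower, with 0 members. The increase was smaller at 72 h than at 48 h by a log2 difference of −1.01, whose counting interval lay below 0.

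*Plin2* (chromosome 4, 86648386 to 86670060) encodes perilipin 2, the coat protein found on lipid droplets of most cells. It gave 1003 counts without and 1847 counts with butyrate at 48 h, against 1063 without and 1266 with it at 72 h. The untreated libraries were nearly equal, at 1026 and 1050 normalised counts, and the butyrate libraries lay above them at 1676 and 1367. The log2 fold changes were 0.71 (0.60 to 0.82) and 0.38 (0.26 to 0.50). *Plin3* (chromosome 17, 56277476 to 56292873) encodes perilipin 3, which binds nascent droplets from the cytosol. It gave 2033 (untreated) and 1966 (butyrate) counts at 48 h, against 1913 and 1668 at 72 h, with log2 fold changes of −0.22 (−0.31 to −0.13) and −0.07 (−0.16 to 0.03). In normalised counts *Plin2* was close to *Plin3* with butyrate at 48 h, at 1676 against 1784, and at 1026 against 2079 without it.

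**Figure D2:**
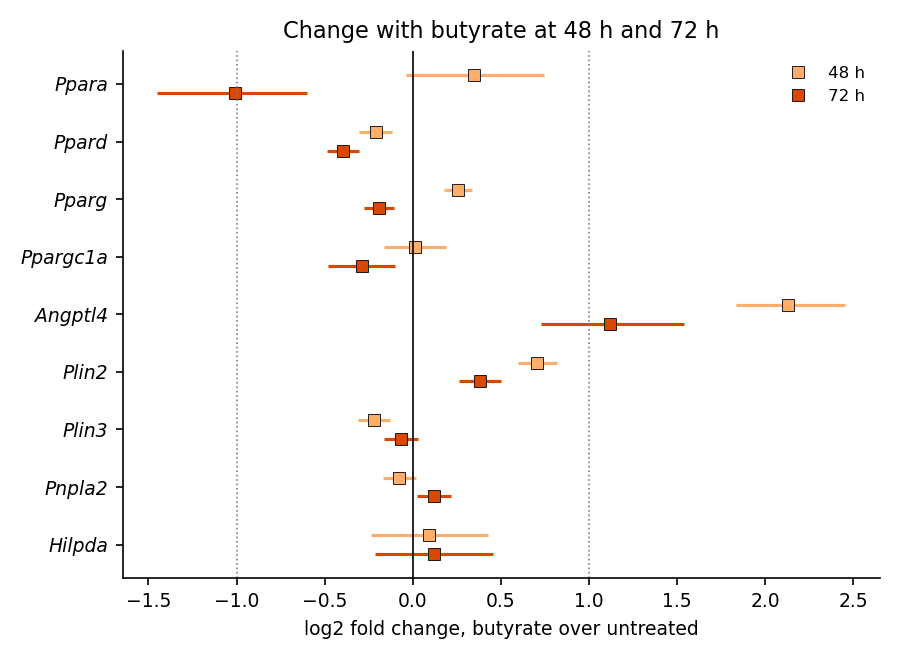
Log2 fold changes of butyrate over untreated for the 9 tested members at 48 h (light) and 72 h (dark), with 95% counting intervals as lines and dotted lines at 2-fold. *Angptl4* lies beyond the dotted line at both times, and *Plin2* is higher at both times. *Ppara*, *Pparg*, *Ppargc1a* and *Pnpla2* change side between 48 h and 72 h, although the 48 h intervals of all but *Pparg* include 0.

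The rest of the perilipin family was followed alongside. *Plin4* gave 22 counts without and 55 counts with butyrate at 48 h, against 10 without and 81 with it at 72 h, with log2 fold changes of 1.12 (0.41 to 1.93) and 3.02 (2.20 to 4.26). *Plin5*, whose protein ties droplets to mitochondria in oxidative tissues, gave 16 (untreated) and 58 (butyrate) counts at 48 h, against 2 and 30 at 72 h, with log2 fold changes of 1.63 (0.87 to 2.58) and 3.49 (2.06 to 7.15). For both genes the 2 butyrate libraries were above the 2 untreated ones. At 72 h the untreated values are 10 counts or fewer, so these fold changes rest on few reads. *Plin1*, the adipocyte perilipin, had between 0 and 5 counts and was not tested. Of the 4 perilipins tested, *Plin2*, *Plin4* and *Plin5* had intervals above 0 at both times, and the share of all tested genes above 0 at both times was 12.9%. The median of the 4 was 0.91 on the log2 scale at 48 h and 1.70 at 72 h, and it rests on *Plin4* and *Plin5*, which are low without butyrate. *Plin3*, *Plin4* and *Plin5* lie within 192 kb of chromosome 17 among 10 protein-coding genes, with *Plin4* from 56100591 to 56109803 and *Plin5* from 56111601 to 56117596, whereas *Plin2* is on chromosome 4.

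**Figure D3:**
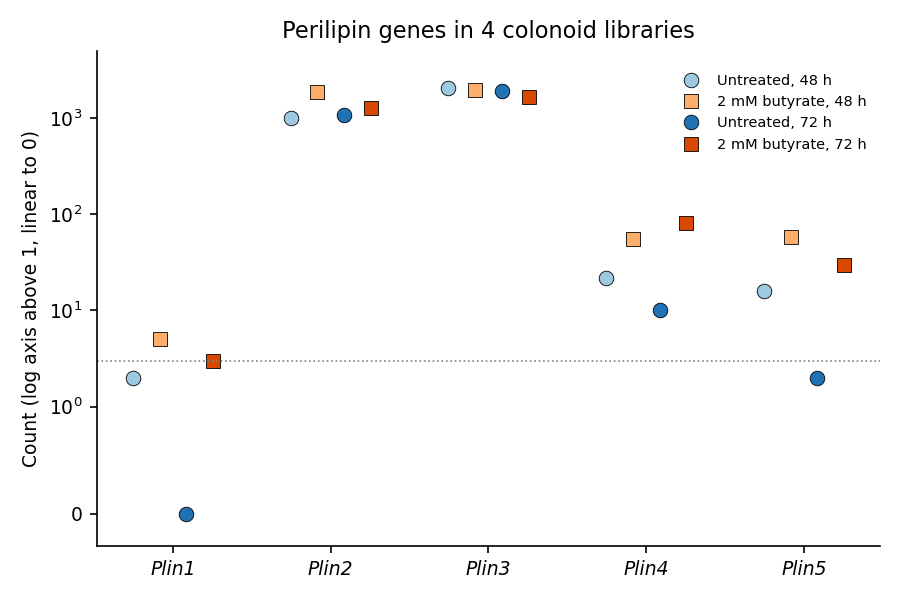
Counts of the 5 perilipin genes in the 4 libraries, on an axis that is logarithmic above 1 and linear down to 0, with the dotted line at the floor of 3 counts. *Plin2*, *Plin4* and *Plin5* are higher in both butyrate libraries, *Plin3* is not, and *Plin1* is near the floor.

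Of 13 other listed droplet proteins 11 were tested, and their median was 0.082 on the log2 scale at 48 h and −0.23 at 72 h. Of these, 0 were at least 2-fold higher or lower at either time. This count is to be read beside 6.94% higher and 3.08% lower of all tested genes at 48 h, and 4.53% and 3.78% at 72 h. At 48 h, 4 intervals lay above 0 and 3 below, beside 29.3% and 31.3% of all tested genes. At 72 h, 2 lay above 0 and 8 below, beside 25.9% and 26.4%. *Bscl2*, which encodes the droplet assembly protein seipin, had log2 fold changes of −0.26 and −0.33. Its partner *Tmem159* was at −0.37 and −0.31, the latter with an interval that included 0 under total count scaling, and the droplet-associated enzyme gene *Hsd17b13* at −0.15 and −0.19. *Faf2*, an adaptor of droplets and the endoplasmic reticulum, was slightly higher, at 0.11 and 0.10.

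*Pnpla2* (chromosome 7, 141455198 to 141460743) encodes adipose triglyceride lipase, which starts triglyceride breakdown. It gave 1796 counts without and 1919 counts with butyrate at 48 h, against 1815 without and 1804 with it at 72 h. All 4 libraries lay between 1741 and 1948 normalised counts, with log2 fold changes of −0.08 (−0.17 to 0.02) and 0.12 (0.03 to 0.22). *Hilpda* (chromosome 6, 29272488 to 29275446) encodes a small inhibitor of this lipase. It gave 142 (untreated) and 171 (butyrate) counts at 48 h, against 151 and 150 at 72 h, with log2 fold changes of 0.09 (−0.23 to 0.43) and 0.12 (−0.22 to 0.46). A difference in *Hilpda* was not detectable at this depth, and its intervals end below a 1.5-fold increase.

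The activator and the next lipase of the pathway were close to the untreated level, and 4 other genes of the list had intervals above 0 at 48 h (29.3% of all tested genes). *Abhd5*, the activator of adipose triglyceride lipase, was at 0.00 (−0.19 to 0.19) and 0.04 (−0.14 to 0.22), and *Lipe*, which encodes hormone-sensitive lipase, at −0.18 (−0.47 to 0.11) and 0.09 (−0.20 to 0.38). *G0s2*, another inhibitor, had between 2 and 7 counts and was not tested. *Mgll*, the monoglyceride lipase gene, gave 5 (untreated) and 22 (butyrate) counts at 48 h, against 9 and 11 at 72 h. Of 9 tested lipolysis genes of 10 listed, 2 were at least 2-fold higher at 48 h and 0 at 72 h, beside 6.94% and 4.53% of all tested genes. They were *Mgll*, at 1.78 (0.53 to 3.72), which passed the filter only through its butyrate libraries, and *Ces1f*, at 1.31, with an interval above 0. At 72 h *Ces1f* was at −0.58 (−0.79 to −0.37). The other genes with intervals above 0 at 48 h were *Lipa*, which encodes lysosomal acid lipase, at 0.46 (0.29 to 0.63), and *Ces1d*, at 0.48 (0.23 to 0.75). At 72 h they were at 0.06 (−0.13 to 0.24) and −0.23 (−0.46 to −0.01). *Lipa* and the carboxylesterase genes *Ces1d* and *Ces1f* were named after their values were seen, and the carboxylesterases have close copies. The list's median was 0.095 and 0.058.

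*Cd36* (chromosome 5, 17781690 to 17888801) encodes a fatty acid translocase that is a PPAR target in macrophages, fat and small intestine. No count was found in any library. A floor of 3 counts corresponds to between 0.0345 and 0.0402 CPM per kb, and expression under this floor would not have been detectable. *Fabp1* had 1 count in all, and *Gpihbp1*, the endothelial anchor of lipoprotein lipase, had 0. *Lpl*, which encodes the lipase inhibited by ANGPTL4, gave 22 counts without and 48 counts with butyrate at 48 h, against 58 without and 35 with it at 72 h.

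Of 17 listed genes of fatty acid uptake and the lipoprotein lipase system 10 were tested, and their median was −0.24 on the log2 scale at 48 h and −0.027 at 72 h. At 48 h, 6 of the 10 had intervals below 0 and 2 above, *Angptl4* among the latter, beside 31.3% and 29.3% of all tested genes. At 72 h 3 lay below and 3 above, near the 26.4% and 25.9% of all tested genes. *Fabp2*, the intestinal fatty acid binding protein gene, gave 689 counts without and 414 counts with butyrate at 48 h, against 1004 without and 396 with it at 72 h, with log2 fold changes of −0.91 (−1.09 to −0.73) and −1.21 (−1.38 to −1.04). The transporter gene *Slc27a4* was at −0.35 and −0.71, and *Fabp5* at −0.29 and −0.90, with all intervals below 0. At least 2-fold higher at each time was only *Angptl4* (6.94% of all tested genes at 48 h and 4.53% at 72 h). At least 2-fold lower (3.08% and 3.78%) were *Angptl8* at 48 h, at −1.07 (−1.90 to −0.35), and *Fabp2* at 72 h. *Angptl8*, another regulator of lipoprotein lipase, was named after its values were seen, and at 72 h it was at −0.07 (−0.72 to 0.57).

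Over 18 tested triglyceride synthesis genes of 20 listed, the median was 0.060 at 48 h and −0.014 at 72 h. Intervals lay above 0 for 8 genes and below 0 for 4 at 48 h, beside 29.3% and 31.3% of all tested genes, and for 2 and 6 at 72 h, beside 25.9% and 26.4%. The split at 72 h depended on scaling. With total count scaling the intervals of *Dgat2* and *Lpin2* also lay above 0, and those of *Dgat1* and *Gpam* included 0. *Lpin2* and *Gpam* were named after their values were seen. The genes for the enzymes of the last step differed in direction at 48 h. *Dgat1* was at −0.29 (−0.49 to −0.10) and −0.21 (−0.41 to −0.01), the latter with an interval that included 0 under total count and non-mitochondrial scaling, and *Dgat2*, named after its values were seen, was at 0.65 (0.43 to 0.89) and 0.24 (−0.02 to 0.50). The only gene beyond 2-fold, at 48 h (6.94% of all tested genes higher), was *Mogat2*, a monoacylglycerol acyltransferase gene named after its values were seen. It gave 16 counts without and 247 counts with butyrate at 48 h, against 23 without and 27 with it at 72 h, with log2 fold changes of 3.70 (3.05 to 4.61) and 0.35 (−0.50 to 1.23).

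Other PPAR target genes were described from a list of 28, none of them a member, of which 21 were tested. At 48 h, 15 of the 21 had intervals above 0 and 0 below, beside 29.3% and 31.3% of all tested genes, and the list's median log2 fold change was 0.36. At 72 h, 2 had intervals above 0 and 8 below, beside 25.9% and 26.4%, with a median of −0.21. The median of the 9 epithelial markers at 72 h was −0.17, and its part in these values was not tested. *Acot1* (0.43 and 0.45) and *Acadvl* (0.30 and 0.11) were the 2 genes higher at both times by their intervals, beside 12.9% of all tested genes. *Acot1* encodes an acyl-CoA thioesterase and has close copies, so its counts depend on how reads were shared, and *Acadvl* encodes an enzyme of mitochondrial fatty acid oxidation.

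*Cpt1a*, which encodes the carnitine transferase that admits fatty acids to mitochondria, was at 0.36 (0.28 to 0.44) and −0.25 (−0.34 to −0.16). *Ucp2*, a mitochondrial carrier gene, was at 0.19 (0.16 to 0.23) and 0.03 (−0.01 to 0.07). *Pdk4*, the kinase that restrains pyruvate dehydrogenase, gave 49 (untreated) and 36 (butyrate) counts at 48 h, against 108 and 83 at 72 h, and both its intervals included 0. Beyond 2-fold were *Creb3l3* (1.25) and *Acaa1b* (1.19) at 48 h (6.94% of all tested genes higher) and *Vnn1* (−1.05) at 72 h (3.78% lower), which were named after their values were seen. At the other time *Creb3l3* was at −0.96 (−1.75 to −0.26), *Acaa1b* at 0.07 (−0.39 to 0.54) and *Vnn1* at 0.18 (−0.48 to 0.85).

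**Figure D4:**
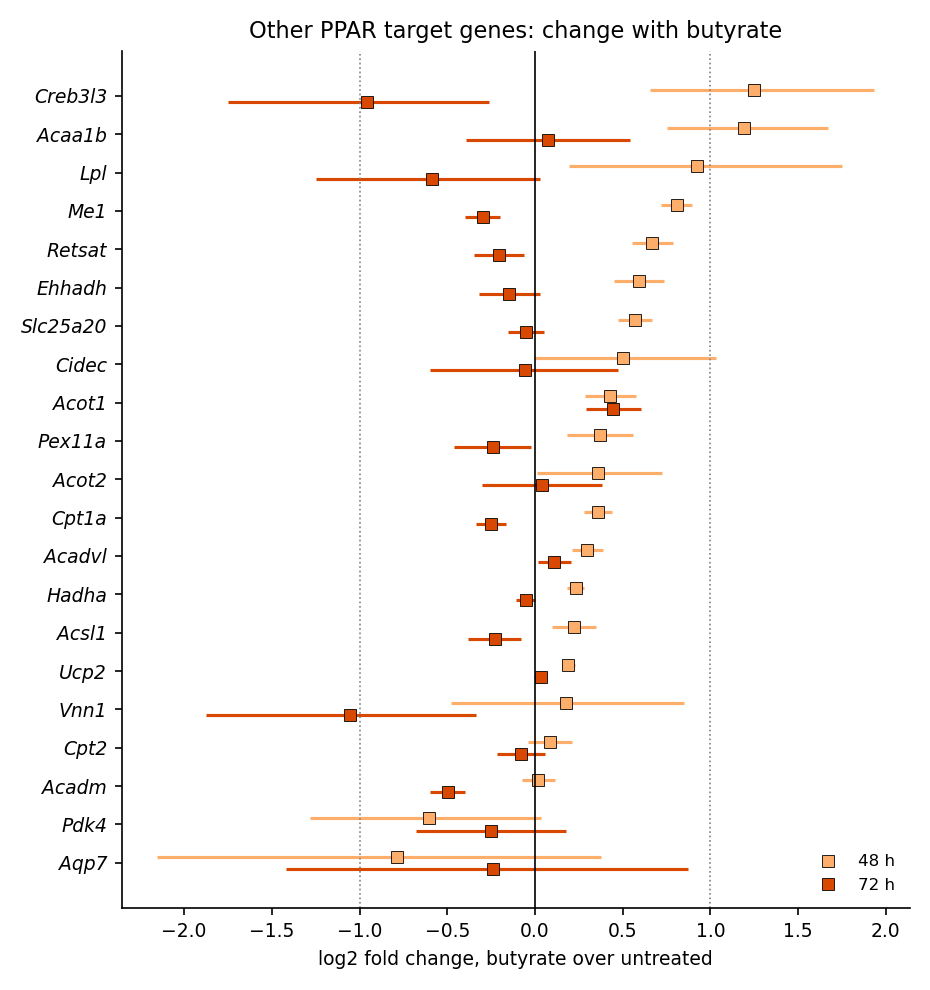
Log2 fold changes of butyrate over untreated for the 21 tested PPAR target genes outside the members at 48 h (light) and 72 h (dark), ordered by the 48 h value, with 95% counting intervals and dotted lines at 2-fold. At 48 h 19 genes lie above 0, and at 72 h 16 lie below it.

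*Angptl4*, *Plin2* and *Hilpda* are also induced by hypoxia, and hypoxia-response genes were therefore set beside them. All 13 listed genes were tested. At 48 h, 9 had intervals above 0 and 1 below, beside 29.3% and 31.3% of all tested genes, with a median log2 fold change of 0.15. At 72 h these counts were 12 and 0, beside 25.9% and 26.4%, with a median of 0.42. The 9 at 48 h became 8 with TMM factors and 7 with totals without mitochondrial genes. *Ndrg1* was at 0.59 and 0.43, *Pgk1* at 0.31 and 0.51, and *Bnip3*, a mitophagy receptor gene, at 0.32 and 0.97. From 48 h to 72 h, in contrasts that share these libraries, the list's median was −0.27 in untreated colonoids and −0.058 in butyrate-treated colonoids. In untreated colonoids 2 intervals lay above 0 and 10 below, beside 22.4% and 20.2% of all tested genes. In butyrate-treated colonoids these counts were 5 and 6, beside 30% and 31.4%. *Adm*, which encodes adrenomedullin and was named after its values were seen, was the only one at least 2-fold higher with butyrate, at 1.21 (0.84 to 1.60) at 72 h (4.53% of all tested genes). At 48 h *Adm* was at 0.15 (−0.13 to 0.43). The part of a hypoxia response in the values of *Angptl4* and *Plin2* was not tested.

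**Figure D5:**
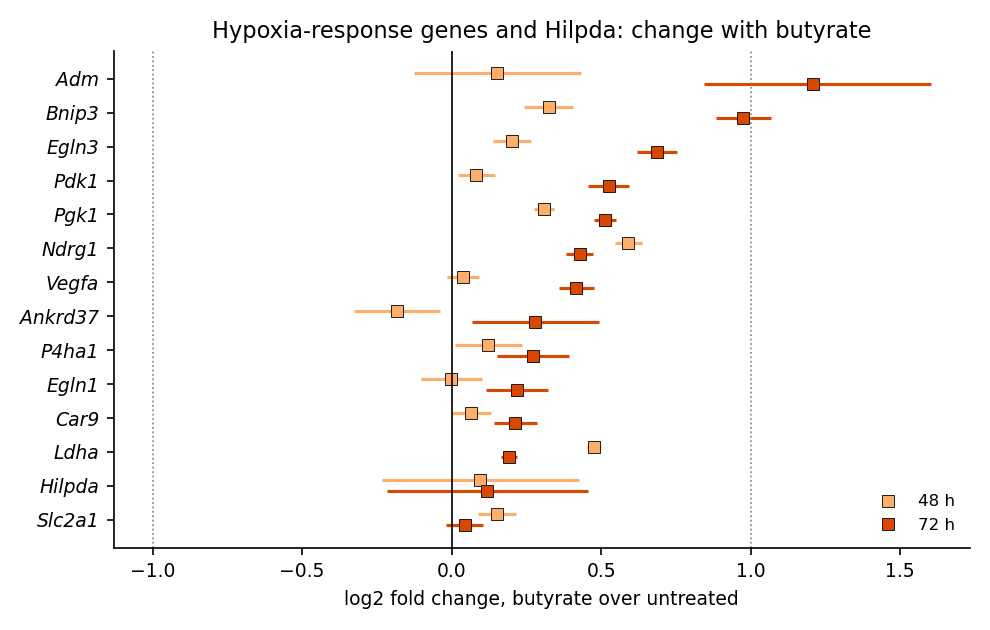
Log2 fold changes of butyrate over untreated for 13 hypoxia-response genes and *Hilpda* at 48 h (light) and 72 h (dark), ordered by the 72 h value, with 95% counting intervals and dotted lines at 2-fold. At 72 h all 13 hypoxia-response genes lie above 0, and both intervals of *Hilpda* include 0.

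The difference between the 2 times was described as the log2 fold change at 72 h minus that at 48 h. Its counting interval excluded 0 in 8 of the 9 tested members and in 48.4% of all tested genes. It was negative in 6 members (23.9% of all tested genes), namely the 3 receptors, *Ppargc1a*, *Angptl4* and *Plin2*, and positive in *Plin3* and *Pnpla2* (24.5%). In *Ppara* it was −1.36 (−1.92 to −0.80). In the other PPAR targets it was negative in 15 of 21 genes by the interval and positive in 0, with a median of −0.56. Of the 9 epithelial markers, 6 were negative and 2 positive by the interval, with a median of −0.165. With single cultures, these differences cannot be told apart from differences between cultures.

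Time itself was compared within each treatment, in contrasts that share their libraries with those above. From 48 h to 72 h in untreated colonoids, 0 of the 9 members were at least 2-fold higher (2.66% of all tested genes) or lower (1.82%). *Ppara* was at 0.65, the only member beyond 1.5-fold (6.82% higher, 5.17% lower), *Angptl4* at −0.47 and *Ppard* at 0.21. Intervals lay above 0 for the 3 receptors (22.4% of all tested genes) and below 0 for *Angptl4* and *Plin3* (20.2%). In butyrate-treated colonoids 0 members were at least 2-fold higher (3.67%), and 1, *Angptl4*, was at least 2-fold lower (4.95%), at −1.48. *Ppara* was at −0.71, *Pparg* at −0.33, *Plin2* at −0.29 and *Ppargc1a* at −0.27. Beyond 1.5-fold were 0 members higher (9.66%) and 2 lower, *Angptl4* and *Ppara* (11.9%). The interval lay above 0 for *Pnpla2* (30% of all tested genes) and below 0 for *Ppara*, *Pparg*, *Ppargc1a*, *Angptl4* and *Plin2* (31.4%). Among the remaining members the values lay between −0.14 and 0.16 in both contrasts, apart from *Ppard* in untreated colonoids given above.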

How the data were processed

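RNA was poly-A enriched and sequenced by the study, and the authors deposited whole-number counts per gene name for 4 libraries. The counts are rounded estimates from kallisto, version 0.44.0 on GRCm38.p6 per the submitters' processing notes, summed to genes with tximport, without normalisation or filter. Such counts depend on how reads of near-identical genes were shared. The annotation release is not given in the sources used here.

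Size factors came from DESeq2 1.42.0 and TMM factors from edgeR 4.0.16, both under R 4.3.3. Python 3.11.15 did the rest, using scipy 1.17.1, numpy 2.4.6, pandas 2.3.3 and, for plots, matplotlib 3.10.9. A gene was tested if 2 or more libraries held above 10 counts, which left 13979. Log2 fold changes used a pseudocount of 1. Intervals at the 95% level were exact Clopper-Pearson intervals on pairs of counts, Wald intervals for differences of fold changes and exact Poisson intervals for levels. Since PCR reads carried no molecular identifiers, they do not count independent molecules, and neither intervals nor the 3-count floor go beyond counting error. No test gave a p-value. The code was tested on simulated data. Positions and exon lengths came from GENCODE M21 (GRCm38), and library totals lay between 20790225 and 24207840.

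Members and the 14 gene lists were chosen with earlier results of these data known. Some genes of the PPAR target list are not reported here and were left out of its counts. Named genes were the members, 15 partners and targets fixed by name, and in each list that is not a marker list up to 3 genes in each direction with the largest smaller change among those whose intervals excluded 0 on the same side at both times. Alternatives were TMM, total count and non-mitochondrial total scaling, a pseudocount of 5, a mean normalised count of at least 50, no filter, a 1.5-fold threshold and transcript length.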

Additional observations from a re-analysis of the deposited data

Results flagged for a closer look

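*Pparg* and *Cpt1a* were higher with butyrate at 48 h and lower at 72 h, with counting intervals that exclude 0 on opposite sides, and the difference between the times was not tested against replicate error. Such a pair of intervals, above 0 at 48 h and below 0 at 72 h, was found in 634 of the 13979 tested genes (4.54%). It was found in 6 of 21 other PPAR targets, *Cpt1a* itself among them, and in 4 of 9 epithelial markers, so it is not particular to these genes. The log2 fold change at 72 h minus that at 48 h was −0.45 for *Pparg* and −0.61 for *Cpt1a*.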

How the results depend on the processing

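With 1 library per condition there were no replicate pairs, so no paired analysis was made. A fit of treatment plus time, which takes the times as replicates and leaves 1 residual degree of freedom, was not run. *Ppara* at 72 h was the only member whose 2-fold call depended on scaling. The number of members at least 2-fold changed at 72 h went from 2 to 1, and of those at least 2-fold lower from 1 to 0, with total count scaling, with the total without mitochondrial genes and with a pseudocount of 5. A threshold of 1.5-fold, by its construction, gave 2 members changed at 48 h, both higher, 1 higher from 48 h to 72 h in untreated colonoids, and 2 changed from 48 h to 72 h in butyrate-treated colonoids, both lower. A mean normalised count of at least 50 leaves out *Plin4* and *Plin5*, and the perilipin median became 0.24 at 48 h and 0.16 at 72 h. The share of tested genes beyond 2-fold in either direction at 48 h was 5.48% under that filter, against 10.0% under the main one. With total count scaling, the median of the members from 48 h to 72 h in untreated colonoids was −0.045, on the other side of 0. Counts of members with intervals above or below 0 at 48 h and 72 h were the same under TMM, total count and non-mitochondrial scaling, and those of other PPAR targets above 0 at 48 h lay between 14 and 16. Hypoxia genes above 0 at 48 h lay between 7 and 9, other droplet proteins below 0 at 72 h between 6 and 8, triglyceride synthesis genes below 0 at 72 h between 4 and 6, and coregulators below 0 at 72 h between 2 and 5. Of the genes named by the rule, *Nrip1*, *Tmem159* and *Dgat1* lost and *Ucp2* gained an interval on 1 side of 0 at 72 h with total count scaling, *Dgat1* and *Ucp2* also with non-mitochondrial totals, and *Ppargc1b* gained one with TMM factors. In untreated colonoids at 48 h, 6 members lay above the median level of tested genes by exon length and 5 by the longest transcript.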
